A study of Mus musculus with 16 samples.

Results

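The genes described here are 8 genes of mural cells, the pericytes and vascular smooth muscle cells that wrap blood vessels. They are Rgs5, Cspg4 and Notch3, used as pericyte markers, and Acta2, Tagln, Myl9, Mylk and Cnn1, which encode or regulate the contractile apparatus. They were chosen by name, as 8 of the 23999 gene symbols in the count table, and each was read in all 16 libraries. The libraries came from mice with NPM1cA, the mutant nucleophosmin of acute myeloid leukaemia that moves from the nucleolus to the cytoplasm, and every group compared carried it. Myeloid sarcomas, solid tumours of leukaemic cells, came from 4 NPM1cA/SMC3+/- mice, of which 948 and 2721 gave 2 tumours each, and 1267 and 1268_1270 gave 1. Infiltrated whole bone marrow came from 9 NPM1cA/SMC3+/- mice, 737, 779, 782, 919, 949, 1103, 1267, 2721 and 3332. One further sarcoma, of mouse 841, carried NPM1cA with wild type SMC3, the gene of a core cohesin subunit. The name 1268_1270 may stand for 1 mouse or for a pool of 2 and was counted as 1 mouse. How either allele was driven, and the strain, sex and age of the mice and the site of each tumour, were not stated in the labels or the deposited table. Tumours were dissected and lysed directly, whereas marrow was crushed out of bone, strained and cleared of red cells before lysis, so tissue and handling cannot be told apart.

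Mural cells sit on the outer face of the endothelium, which recruits them with platelet-derived growth factor B acting on their receptor Pdgfrb. Pericytes cover capillaries and are marked by surface and signalling proteins, whereas smooth muscle cells of larger vessels carry bundles of smooth muscle actin and myosin. Contraction starts when myosin light chain kinase phosphorylates the regulatory light chain of myosin. Many contractile genes are driven by serum response factor, SRF, with its cofactor myocardin through a DNA element called the CArG box, and Notch3 signalling from endothelial Jag1 helps keep the mural state. Fibroblasts activated in wounds and tumours also make Acta2 and Tagln, so neither gene alone marks a vessel.

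To show the DNA in front of the genes, the 250 bases before the RefSeq start site (mouse build GRCm38.p6) were searched on both strands for the CArG box, for CATTCC, which TEAD factors bind, and for TGGGAA, which the Notch effector RBPJ binds. The set of RefSeq promoters used here held 7 of the 8, and the promoter of Tagln was missing from that set and was not searched. The exact CArG box stood in 1 of the 7, that of Myl9, as CCTAATAAGG from 161 to 152 bases before the start. It occurs in 1.47% of 32851 mouse promoter windows of the same length. With 1 mismatch allowed, boxes stood in Myl9, Acta2 and Cspg4, against 18.6% of all windows. Myl9 and Acta2 are printed because each held a pair of boxes that do not overlap, with 1 mismatch in both Acta2 boxes and in the second Myl9 box. Rgs5 is printed because its difference between tissues was close in size to that of Myl9 while none of these letters stood in its window. Capitals mark the motif matches. In Acta2 the TGGGAA match overlaps the second CArG-like box, and GGAATG is CATTCC on the other strand. The Myl9 window is chr2:156775214-156775463 on the plus strand, the Acta2 window chr19:34255374-34255623 on the minus strand and the Rgs5 window chr1:169655251-169655500 on the plus strand.
Myl9: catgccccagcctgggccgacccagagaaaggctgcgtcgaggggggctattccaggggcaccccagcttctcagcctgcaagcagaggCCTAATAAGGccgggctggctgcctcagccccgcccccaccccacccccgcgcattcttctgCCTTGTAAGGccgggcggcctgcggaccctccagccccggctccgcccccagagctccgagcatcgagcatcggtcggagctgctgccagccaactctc
Acta2: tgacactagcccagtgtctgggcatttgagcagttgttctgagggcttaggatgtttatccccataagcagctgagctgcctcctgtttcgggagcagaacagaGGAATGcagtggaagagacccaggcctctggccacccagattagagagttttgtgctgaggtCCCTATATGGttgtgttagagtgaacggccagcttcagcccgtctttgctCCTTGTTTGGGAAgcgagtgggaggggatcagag
Rgs5: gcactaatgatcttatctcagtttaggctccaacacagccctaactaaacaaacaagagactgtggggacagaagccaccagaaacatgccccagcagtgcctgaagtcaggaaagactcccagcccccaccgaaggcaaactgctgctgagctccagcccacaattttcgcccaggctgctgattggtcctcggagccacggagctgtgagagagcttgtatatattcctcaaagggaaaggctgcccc
CATTCC stood in 2 of the 7 windows, Acta2 and Mylk, against 12.6% of all windows, and TGGGAA in 1, Acta2, against 21.6%. These matches describe letters in a window and no binding was measured.

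Levels are CPM (read counts per library total, scaled to a common size) on library totals scaled by TMM, and both tumours of a mouse were summed. The libraries held 9797201 to 39197660 counts, so that 1 count was worth 0.0232 to 0.0930 CPM. Marrow libraries 737, 779 and 782 were low in transcripts longer than 6 kb, with a median log2 deviation of -2.11, -2.15 and -1.95 from the median library over 1118 long genes. The other 13 libraries lay between -0.63 (marrow 1267) and 0.45, with tumour 1 of mouse 948 at -0.58. Sarcoma 1268_1270 stood apart in composition. Its 12 adipocyte genes summed to 48408 CPM against 128 to 694 CPM in the other 4 sarcomas and at most 103.5 CPM in marrow, and its 15 pan-leukocyte genes, including Ptprc, to 795 CPM against 7035 to 13095 CPM in the other sarcomas and 8709 to 16370 CPM in marrow. The leukocyte genes were thus high in all samples other than this one, in which Ptprc still had 56.9 CPM. Results are therefore given with and without it.

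All 8 genes had a higher fitted level in SMC3+/- sarcomas than in SMC3+/- marrow, and 4 passed the test: Rgs5, Myl9, Tagln and Mylk. Rgs5 and Myl9 were close to absent from marrow and differed most, whereas Acta2, Tagln and Mylk had counts in 8 of 9 marrows each, Acta2 with up to 53.2 CPM. Across all 14730 genes tested, edgeR called 4.49% higher and 0.0543% lower in sarcomas at an adjusted p under 0.05. Of the 8 genes, all of which passed the count filter, 4 were called higher and 0 lower. All 8 had an unadjusted p under 0.05 in edgeR, as had 2031 of the 14730 genes. Rgs5, Myl9, Cspg4 and Cnn1 had at least 10 counts in only 1, 0, 2 and 1 of the 9 marrows. They therefore passed the filter largely through the sarcomas. The 8 genes were also chosen with earlier results of these data known. These counts thus describe the 8 genes and test nothing about them as a set. With the tumours of a mouse summed, the groups did not overlap for 3 of the 8, Rgs5, Myl9 and Tagln. Sarcomas lay above marrow without overlap for 4.43% of all genes tested. DESeq2 gave an adjusted p to 7 of the 8, all but Rgs5, and called 3 higher (Myl9, Tagln and Mylk). It called 4.72% of genes higher and 0.616% lower. limma-voom called 6 higher, adding Cspg4 and Notch3, where it called 6.05% higher and 0.143% lower. The median log2 difference over the 8 genes was 4.23, against 0.07 over all genes tested. In bulk tissue, fewer cells of a type and less RNA per cell cannot be told apart.

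**Figure D1:**
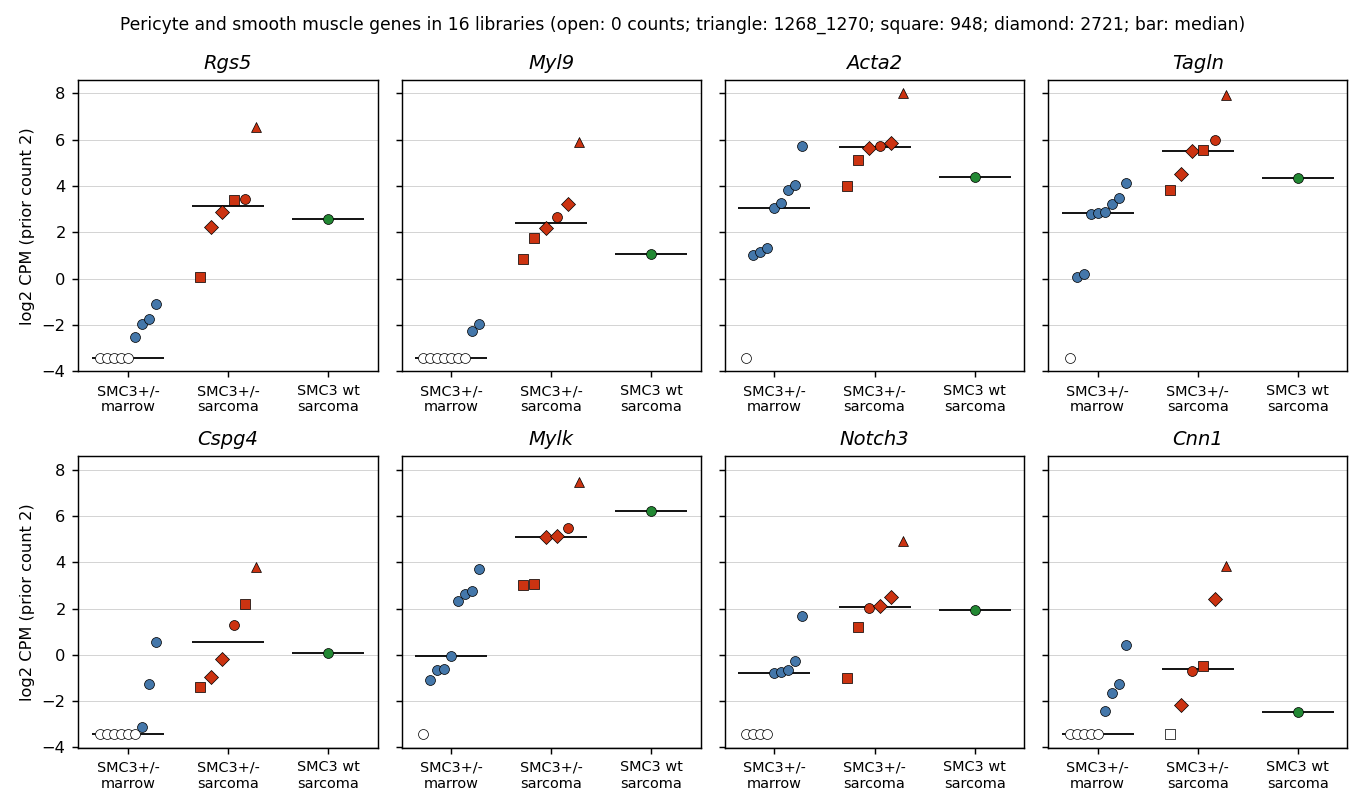
Each panel plots 1 gene in the 16 libraries as log2 CPM with a prior count of 2, and the bar is the median of the libraries in a group; open circles are libraries with 0 counts. In every panel the triangle of sarcoma 1268_1270 is the highest point, and Rgs5 and Myl9 have no marrow point within the range of the sarcomas.

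Among the pericyte genes, Rgs5, which encodes a brake on G-protein signalling in the vessel wall, had 6.31 CPM in the sarcoma of mouse 948, 10.6 in 1267, 5.86 in 2721 and 92.6 in 1268_1270. In marrow its lowest and median levels were 0 CPM and its highest 0.374 CPM, in mouse 2721. The 9 marrow libraries held 25 Rgs5 counts in all, and 5 of them held none. Every sarcoma lay above every marrow, and the lowest sarcoma was far above the highest marrow. The mean was 28.9 ± 42.6 CPM in sarcomas (SD, n = 4) and 0.0919 ± 0.133 CPM in marrow (SD, n = 9), and Rgs5 rose by 8.09 ± 1.19 on the log2 scale (approximate SE, edgeR adjusted p = 0.00140). Without sarcoma 1268_1270 the difference was 6.11 and it kept its call (edgeR adjusted p = 0.0319).

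Cspg4 encodes the NG2 proteoglycan on the pericyte surface. Its level was 2.12 CPM in sarcoma 948, 2.34 in 1267, 0.604 in 2721 and 13.6 in 1268_1270. Marrow had a lowest and a median level of 0 CPM and a highest of 1.36 CPM, in mouse 1103, which supplied 42 of the 53 marrow counts. That marrow exceeded sarcoma 2721, so the groups overlapped. The difference of 4.49 ± 1.54 was not called (edgeR adjusted p = 0.142), and without marrow 1103 it was 6.45 and called (edgeR adjusted p = 0.0199).

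Notch3 encodes the Notch receptor of mural cells. It had 1.18 CPM in sarcoma 948, 3.98 in 1267, 4.95 in 2721 and 30.2 in 1268_1270. Marrow ranged from 0 CPM over a median of 0.491 to 3.10 CPM, the last in mouse 2721, which supplied 83 of the 154 marrow counts and exceeded sarcoma 948. The difference was 4.01 ± 1.34 and was not called (edgeR adjusted p = 0.130). Without marrow 2721 it was 5.10 and called (edgeR adjusted p = 0.0425). Of the 13 fits that each left out 1 mouse sample, 1 called Cspg4 and 1 called Notch3, those given here. Each gene was not called in its other 12 fits. Without sarcoma 1268_1270 the differences were 2.93 and 2.35, and limma-voom called both genes with all samples kept.

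Among the contractile genes, Myl9, the regulatory light chain of smooth muscle myosin, came closest to Rgs5. Sarcomas 948, 1267, 2721 and 1268_1270 had 2.62, 6.14, 6.78 and 60.1 CPM. In marrow 7 of 9 libraries held 0 counts and the highest level was 0.164 CPM, in mouse 3332, with 10 counts over all 9 libraries. No marrow came near a sarcoma, and the spread among sarcomas was set by 1268_1270. The mean was 18.9 ± 27.5 CPM in sarcomas (SD, n = 4), and Myl9 rose by 8.81 ± 1.24 (edgeR adjusted p = 0.00119). Without sarcoma 1268_1270 it rose by 6.94 (edgeR adjusted p = 0.0208). A library with 0 counts allows up to 3 counts, which is 0.0697 to 0.279 CPM over the marrow libraries, so a marrow level below that was not detectable at this depth.

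Tagln, which encodes the actin-binding protein transgelin, had 32.9 CPM in sarcoma 948, 64.2 in 1267, 33.7 in 2721 and 244 in 1268_1270. Marrow ranged from 0 CPM in mouse 779 over a median of 7.04 to 17.5 CPM in mouse 2721. With the tumours of a mouse summed the groups did not overlap, although the gap was narrower than for Myl9. Taken singly, tumour 2 of mouse 948 had 14.3 CPM, below marrow 2721. The mean of Tagln was 93.6 ± 101.1 CPM in sarcomas (SD, n = 4) and 6.77 ± 5.62 CPM in marrow (SD, n = 9). Tagln rose by 3.74 ± 0.91 (edgeR adjusted p = 0.0279) and lost the call without sarcoma 1268_1270, at 2.55 (edgeR adjusted p = 0.412).

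Mylk, the kinase that switches smooth muscle myosin on, had 8.13 CPM in sarcoma 948, 44.2 in 1267, 34.1 in 2721 and 176 in 1268_1270. Marrow had a lowest level of 0 CPM, a median of 0.860 and a highest of 13.04 CPM, in mouse 1103. That highest marrow exceeded sarcoma 948, and the other 3 sarcomas lay above all marrows. Mylk rose by 4.11 ± 1.08 (edgeR adjusted p = 0.0430). The call was close to the threshold: it was lost in 9 of the 13 fits that each left out 1 mouse sample, namely sarcomas 1267 and 1268_1270 and marrows 779, 949, 737, 3332, 2721, 919 and 1267, with differences of 2.84 to 4.75 over all 13. The table counts Mylk under 1 symbol, so the long form made by many cell types and the smooth muscle form were not separated.

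Acta2, smooth muscle alpha actin, had 26.9 CPM in sarcoma 948, 53.7 in both 1267 and 2721, and 258 in 1268_1270. Marrow ranged from 0 CPM in mouse 737 over a median of 8.19 to 53.2 CPM in mouse 3332, with 1626 counts. The next marrow had 16.5 CPM, so 1 marrow reached the sarcoma range and the other 8 stayed below it. The difference of 3.03 ± 1.01 was not called (edgeR adjusted p = 0.129), and without marrow 3332 it was 3.88 and called (edgeR adjusted p = 0.0359). The other 12 fits that each left out 1 mouse sample did not call Acta2. In marrow 3332 Tagln had 6.87, Myl9 0.164 and Cnn1 0.229 CPM. With the tumours of a mouse summed, Acta2 alone of these contractile genes reached the SMC3+/- sarcoma range there. Cnn1, with 7 counts, lay just below the 0.269 CPM of sarcoma 948. Taken singly, tumour 1 of mouse 2721 (0.129 CPM) and tumour 1 of mouse 948 (0 counts) had less Cnn1.

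Cnn1, calponin, a late marker of the contractile state, was the lowest of the contractile genes. Sarcomas 948, 1267, 2721 and 1268_1270 had 0.269, 0.519, 2.57 and 14.4 CPM. In marrow 5 of 9 libraries held 0 counts and the highest level was 1.23 CPM, in mouse 1103, above sarcomas 948 and 1267. The difference was 4.35 ± 1.49 and was not called (edgeR adjusted p = 0.141), nor in any of the 12 fits that left out 1 sample and could test it.

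**Figure D2:**
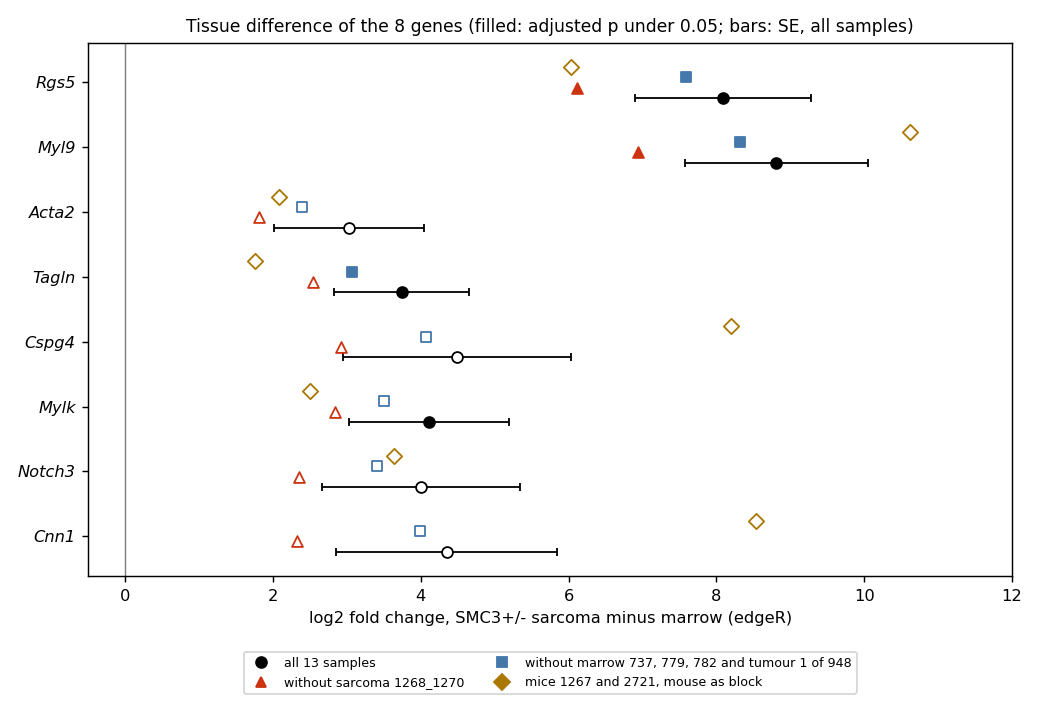
Points are log2 differences of sarcoma minus marrow for the 8 genes with all 13 samples, without sarcoma 1268_1270, without marrows 737, 779, 782 and tumour 1 of mouse 948, and within mice 1267 and 2721 alone; filled points had an edgeR adjusted p under 0.05 and bars are approximate SE. The points within mice 1267 and 2721 rest on 0 counts in both marrows for Myl9, Cspg4 and Cnn1, so their height has no meaning as a size. Every point lies above 0, and removing sarcoma 1268_1270 moved each of the 8 differences down, Rgs5 from 8.09 to 6.11 and Acta2 from 3.03 to 1.82.

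Sarcoma 1268_1270 held the highest of the 4 SMC3+/- sarcoma levels for 8 of 8 genes, where it held the highest level of 34.0% of all genes tested. It exceeded the next SMC3+/- sarcoma 8.87-fold for Myl9, 8.71-fold for Rgs5, 6.10-fold for Notch3, 5.82-fold for Cspg4, 5.60-fold for Cnn1, 4.81-fold for Acta2, 3.99-fold for Mylk and 3.79-fold for Tagln. For Mylk sarcoma 841, with 74.7 CPM, lay between. Beside these levels, its 14 fibroblast genes summed to 18841 CPM against 1067 to 2898 CPM in the other 4 sarcomas, and its 16 endothelial genes to 722 CPM against 173 to 464 CPM. The adipocyte genes Adipoq and Plin1 had 4715 and 1999 CPM there. Elsewhere Adipoq had at most 27.5 and Plin1 at most 1.58 CPM, the latter listed at 0 in sarcoma 841. The part of these tissues in the mural gene levels was not tested. The 8 genes summed to 889 CPM in 1268_1270, 80.4 in 948, 186 in 1267, 142 in 2721 and 129 in 841, against 2.01 to 66.4 CPM in marrow. Set against the fibroblast sum, which does not include them, they came to 4.72% of it in 1268_1270, the lowest of the 5 sarcomas, 6.41% in both 2721 and 1267, 7.05% in 841 and 7.53% in 948. In marrow that ratio ran from 0.640% to 10.4%. Set against the endothelial sum the order was another: the 8 genes came to 123% of it in 1268_1270, the highest of the 5 sarcomas, 106% in 1267, 82.5% in 2721, 33.3% in 948 and 27.8% in 841, and to 3.35% to 90.8% in marrow. Without that sarcoma 2 of the 8 genes were called, Rgs5 and Myl9, where 1.13% of all genes were called higher. The uncalled differences were then 2.93 for Cspg4, 2.84 for Mylk, 2.55 for Tagln, 2.35 for Notch3, 2.32 for Cnn1 and 1.82 for Acta2.

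Compared between genes per kilobase of the longest transcript, the mean sarcoma level was 58.7 CPM per kb for Tagln, 48.2 for Acta2, 16.8 for Myl9, 8.40 for Mylk, 7.05 for Rgs5, 1.87 for Cnn1, 1.26 for Notch3 and 0.574 for Cspg4. Tagln and Acta2 led in all 5 sarcomas. Their order was not fixed, since Acta2 had 26.4 CPM per kb and Tagln 21.1 in sarcoma 2721. Myl9, Mylk and Rgs5 held the middle places in every sarcoma in changing order, and Cnn1, Notch3 and Cspg4 the last 3. In marrow the order was Acta2 with 5.91 CPM per kb, Tagln with 4.25 and Mylk with 0.469, and the other 5 genes were at or below 0.0876. Acta2, Tagln and Mylk thus made up most of the small marrow signal.

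Marrow levels did not move as 1 block either. Mouse 2721 had the highest marrow level of Rgs5, Tagln and Notch3, mouse 1103 that of Cspg4, Mylk and Cnn1, and mouse 3332 that of Acta2 and Myl9. In marrows 737, 779 and 782, the libraries low in long transcripts, Notch3 and Cspg4, with transcripts of 8016 and 8121 bases, had 0 counts. Mylk, with 7824 bases, had 0.564, 0.372 and 0 CPM there. The shorter Tagln, with 1595 bases, was low in them too, at 1.05, 0 and 0.956 CPM against 6.87 to 17.5 CPM in the other 6 marrows. Without these 3 libraries and tumour 1 of mouse 948 (deviation -0.58), 3 of the 8 genes were called, Rgs5, Myl9 and Tagln. In that fit, which kept marrow 1267 (deviation -0.63), 2.04% of all genes were called higher. Leaving out sarcoma 1268_1270 as well took Rgs5 to 5.36 (edgeR adjusted p = 0.161) and Myl9 to 6.44 (0.0892), from 6.11 and 6.94 without that sarcoma alone. It left 0 called by edgeR, with 4 at an unadjusted p under 0.05 and 0.410% of all genes called higher. Of the 15107 genes tested in that fit, 1115 had an unadjusted p under 0.05. DESeq2 and limma-voom were not run on that subset.

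Mice 1267 and 2721 gave both tissues, which allowed a comparison within a mouse. All 8 genes were higher in the sarcoma than in the marrow of the same animal in both mice. The share of all genes higher in both mice was not computed, so this count only describes the 8 genes. For Myl9, Cspg4 and Cnn1 both marrows held 0 counts, so any sarcoma count gives this direction. Marrow 1267 had a median log2 deviation of -0.63 over long transcripts, against -0.007 in sarcoma 1267. Cspg4 and Notch3, with transcripts over 6 kb, had 0 counts in that marrow. The part of transcript length in these differences was not tested. Acta2 had 53.7 CPM in sarcoma and 16.5 in marrow of mouse 1267, and 53.7 and 8.19 CPM in mouse 2721. Tagln had 64.2 and 9.17 CPM in mouse 1267 and 33.7 and 17.5 CPM in mouse 2721. Notch3 was closest, with 4.95 and 3.10 CPM in mouse 2721. Myl9 had 6.14 and 6.78 CPM in the sarcomas and 0 counts in either marrow. With the mouse as a block in these mice alone, the log2 difference was 6.03 for Rgs5 (edgeR adjusted p = 0.747), 1.75 for Tagln (0.440) and 2.50 for Mylk (0.0780). With the block over all samples they were 5.55 (edgeR adjusted p = 0.306), 1.71 (0.554) and 2.46 (0.182). For Myl9 the adjusted p was 0.419 and 0.187, and no size is given because both marrows of these mice held 0 counts. Both blocked fits called 0 of the 8 genes, with 5 at an unadjusted p under 0.05 in each, and 0.563% and 0.726% of all genes were called higher. In the same order, 813 of 14397 and 921 of 14730 genes had an unadjusted p under 0.05 in edgeR. No other tool was run with the block.

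Both tumours of mice 948 and 2721 were sequenced separately. In mouse 948 tumour 1 was higher for Rgs5, with 10.3 against 0.941 CPM, and for Tagln (46.8 against 14.3), Acta2 (35.1 against 15.8) and Myl9 (3.29 against 1.73). Tumour 2 was higher for Cspg4, with 4.55 against 0.294 CPM, and for Notch3 (2.20 against 0.411), whereas Mylk was level at 8.22 and 8.002 CPM. Cnn1 had 0 counts in tumour 1 and 8 in tumour 2. Of the 3 genes with transcripts over 6 kb 2 were thus higher in tumour 2, and over all genes tumour 2 exceeded tumour 1 by a median log2 of 1.10 for transcripts longer than 6 kb and -0.83 for those of 1 to 3 kb. Tumour 1 also held 4098 CPM of 16 skeletal muscle genes, against 36.7 CPM in tumour 2. The part of transcript length and of muscle in these differences was not tested. In mouse 2721 the same medians were 0.10 and -0.03, and 7 of the 8 genes differed by at most 1.05 log2 units between tumours. Cnn1 was the exception there, with 3 counts (0.129 CPM) in tumour 1 and 112 counts (5.21 CPM) in tumour 2, while Acta2 had 50.2 and 57.6 CPM. Skeletal muscle genes summed to 33.1 CPM in tumour 1 and 766 CPM in tumour 2 of that mouse, and Myh11, the smooth muscle myosin heavy chain, had 10.3 and 22.6 CPM.

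**Figure D3:**
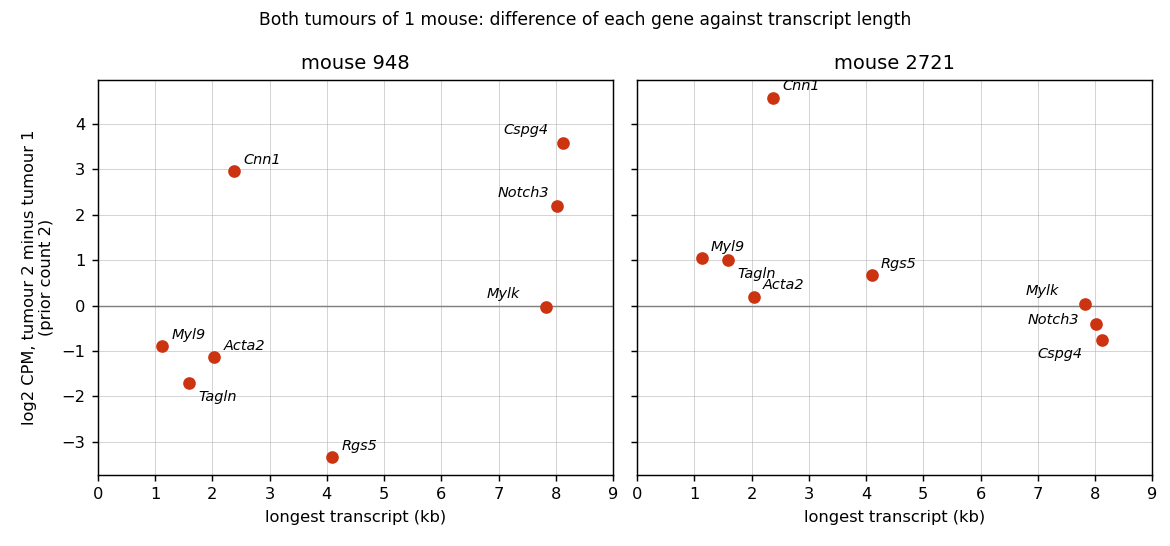
Each point is 1 gene, placed by the length of its longest transcript (kb) and by the log2 CPM of tumour 2 minus tumour 1 of the same mouse (prior count 2). In mouse 948 the transcripts under 6 kb lie below 0 apart from Cnn1, and the 2 longest lie above it, and in mouse 2721 only Cnn1 lies far from 0.

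The sarcoma of mouse 841, the only one with wild type SMC3, had 5.88 CPM of Rgs5, 0.966 of Cspg4, 3.78 of Notch3, 2.02 of Myl9, 20.5 of Tagln, 21.1 of Acta2, 74.7 of Mylk and 0.0878 of Cnn1. With the tumours of a mouse summed, Myl9, Tagln, Acta2 and Cnn1 lay below the range of the 4 SMC3+/- sarcomas, and the other 4 inside it. The share of all genes for which sarcoma 841 lay below that range was not computed, so these counts only describe the 8 genes. Taken singly, tumour 2 of mouse 948 had less Myl9 (1.73 CPM), Tagln (14.3) and Acta2 (15.8) than sarcoma 841. Tumour 1 of mouse 948 had 0 counts of Cnn1, so none of these 4 genes lay below every single SMC3+/- tumour. In sarcoma 841 the values of these genes are from 1 library. Cnn1 rested on a single count. The fitted differences from the SMC3+/- sarcomas were -2.24 for Rgs5, -3.18 for Myl9, -2.19 for Acta2, -2.15 for Tagln, -2.21 for Cspg4, -1.38 for Notch3, -5.56 for Cnn1 and 0.22 for Mylk, and edgeR called 0 of the 8, all with an adjusted p of 1.00 and 0 with an unadjusted p under 0.05. DESeq2 also called 0 of the 8, with 1 at an unadjusted p under 0.05. Across 17762 genes edgeR called 0 (0% in either direction), with 236 at an unadjusted p under 0.05, and DESeq2 8 higher and 59 lower, 0.0447% and 0.330% of its 17892. With 1 mouse of this genotype its spread is assumed to be that of the others. Without sarcoma 1268_1270 these differences shrank to between -1.22 and 0.30 for the 6 genes other than Mylk (1.52) and Cnn1 (-3.54). In this tumour 851 Mylk and 240 Acta2 counts gave a ratio of 3.55, against 0.234 to 0.824 in the 6 SMC3+/- sarcoma libraries. In the 8 marrows with Acta2 counts the ratio ran from 0 to 5.43, the last in mouse 1103 with 402 Mylk and 74 Acta2 counts.

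Other genes of the mural programme were read from lists by role. Genes near 0 in marrow pass the count filter only through the sarcomas, so the counts describe these lists and test nothing about them. Of 17 other pericyte genes 15 were tested, and 8 were called higher, 0 lower and 7 not called, with a median log2 difference of 4.38. Vtn, vitronectin, had 2.52 to 12.7 CPM in the SMC3+/- sarcomas, 0.176 in sarcoma 841 and 2 counts over all marrows. Abcc9, a subunit of the pericyte potassium channel, had 4.21 to 26.4 CPM in the SMC3+/- sarcomas and 3.60 in sarcoma 841. Marrow had at most 0.302, and Abcc9 rose by 7.75 ± 1.27 (edgeR adjusted p = 0.00272). Ndufa4l2 had 3.75 to 6.76 CPM against at most 0.324 and rose by 6.54 ± 1.23 (edgeR adjusted p = 0.00684), with sarcoma 1268_1270 barely above the others. Aoc3, which adipocytes also make, had 1731 CPM in 1268_1270 and 2.18 to 5.12 in the other 3, and overlapped marrow. Rgs4, a close relative of Rgs5, had 1.71 to 9.70 CPM in SMC3+/- sarcomas and 0 counts in marrow. Its mean was thus at least 283-fold higher than the 0.0146 CPM that 3 counts over the 9 marrows allow. Without sarcoma 1268_1270, which had the 9.70 CPM, it was at least 155-fold higher. With Rgs4 at that bound the median stayed at 4.38. Pdgfrb, the receptor that marks pericytes and fibroblasts, had 3.09, 21.8, 19.3 and 39.3 CPM in sarcomas 948, 1267, 2721 and 1268_1270. Marrow reached 10.9 CPM, and the difference of 2.68 ± 1.24 was not called (edgeR adjusted p = 0.353).

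Of 22 other contractile genes 19 were tested, and 7 were called higher, 0 lower and 12 not called, with a median of 2.64. Tpm2, a muscle tropomyosin, had 84.7, 9.34, 26.5 and 57.6 CPM in sarcomas 948, 1267, 2721 and 1268_1270 and at most 1.40 CPM in marrow, and rose by 6.50 ± 0.94 (edgeR adjusted p = 0.00130). Skeletal muscle makes Tpm2 as well, and the skeletal muscle sum ran in the same order over these 4 sarcomas except that 2721, at 386 CPM, stood above 1268_1270, at 244. Its part was not tested. Actg2, the enteric smooth muscle actin, had 0.705, 0.577, 6.33 and 23.2 CPM and 5 counts over all marrows, and rose by 8.38 ± 1.29 (edgeR adjusted p = 0.00186). Cald1, caldesmon, rose by 7.54 ± 1.19 (edgeR adjusted p = 0.00223), and Tpm1, which leukocytes share, by 1.96 ± 0.35 (0.00483). Myh11, the smooth muscle myosin heavy chain and the most specific of these genes, had 1.38, 4.59, 16.2 and 39.8 CPM in the 4 sarcomas, 0.966 in sarcoma 841 and at most 0.811 in marrow, and rose by 6.34 ± 1.38 (edgeR adjusted p = 0.0157). Genes that most cells use, such as Flna, Vcl and Myl6, were not called.

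Of the Notch genes other than Notch3, 13 of 14 were tested and edgeR called 0, with 4 at an unadjusted p under 0.05, while DESeq2 called 1 and limma-voom 3 higher. The median was 1.82. Jag1, the ligand on endothelium, had 5.88, 5.39, 8.35 and 73.0 CPM in the 4 sarcomas and up to 23.1 CPM in marrow, a difference of 1.82 ± 1.21 (edgeR adjusted p = 0.635). The receptors Notch2 and Notch1, which blood cells share, were fitted at -0.79 ± 0.95 and -0.49 ± 1.06 (edgeR adjusted p = 0.883 and 0.960). Notch4, of endothelium, had 6.23 to 25.3 CPM in SMC3+/- sarcomas and at most 5.81 in marrow, and was not called at 2.41 ± 1.08 (edgeR adjusted p = 0.331).

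Among SRF and its partners 8 of 10 genes were tested, and 3 were called higher and 0 lower, with a median of 1.64. Srf itself had 46.0 to 91.6 CPM in SMC3+/- sarcomas and 48.9 to 138 in marrow (-0.44 ± 0.29, edgeR adjusted p = 0.641), so its RNA was present in both tissues. Its cofactor Myocd was too low to test, at no more than 0.635 CPM in any sarcoma. The called genes were Wwtr1, Tead1 and Yap1, the coactivators and one of the DNA-binding partners of the Hippo pathway, at 8.10, 7.24 and 7.23 (edgeR adjusted p = 0.00500, 0.0107 and 0.0198). Wwtr1 had 329 CPM in 1268_1270 against 5.04 to 9.69 in the other SMC3+/- sarcomas, and these 3 genes lost the call without 1268_1270. Of 13 signals that recruit mural cells 12 were tested and 2 called higher, Edn1, endothelin (7.51 ± 1.18, edgeR adjusted p = 0.00205), and Tek, the angiopoietin receptor (7.05 ± 1.38, 0.00831), with 0 lower and a median of 2.15. Pdgfb had 1.48, 5.59, 2.46 and 23.2 CPM in the 4 sarcomas and at most 2.84 in marrow, and was not called (3.32 ± 1.23, edgeR adjusted p = 0.186). Without sarcoma 1268_1270 the called genes numbered 3 of 15 pericyte, 3 of 19 contractile, 0 of 8 SRF and 1 of 12 recruitment genes. Blocking by mouse over all samples left calls in 2 of 15 pericyte, 2 of 19 contractile, 0 of 8 SRF and 0 of 12 recruitment genes.

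**Figure D4:**
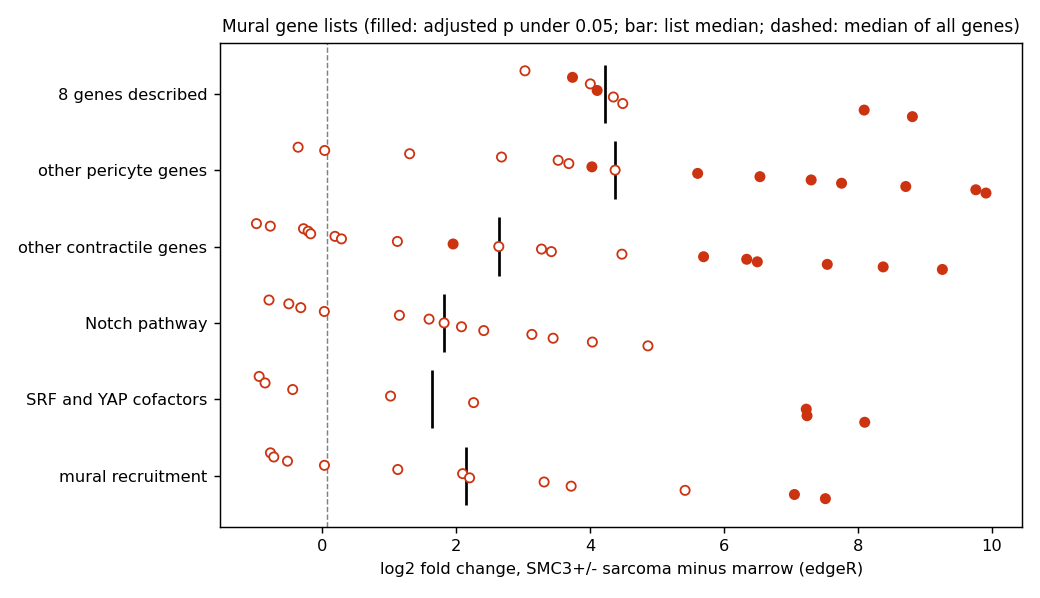
Each point is the log2 difference of sarcoma minus marrow for 1 tested gene, by list; filled points had an edgeR adjusted p under 0.05, bars are list medians, the dashed line is the median of all genes tested (0.07), and the height of a point within its row has no meaning. The 8 genes and the other pericyte genes have medians of 4.23 and 4.38, above the 1.64 to 2.64 of the 4 other lists drawn (contractile, Notch, SRF and recruitment genes).

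Close relatives of the 8 genes that blood cells also use include Actb, Tagln2, Cnn2 and Myl12b. Actb had 1402 to 3338 CPM in the SMC3+/- sarcomas and 1986 to 7309 in marrow, Tagln2 81.7 to 547 against 289 to 1274, Cnn2 90.4 to 463 against 371 to 1015 and Myl12b 160 to 340 against 233 to 399, and edgeR called 0 of these 4 (adjusted p = 0.650, 0.498, 0.411 and 0.896). They were fitted between -0.95 and -0.22. Scaling to the pan-leukocyte genes, under which edgeR called all 8 mural genes and 57.9% of all genes higher, moves the median of all genes from 0.07 to 2.13, and that of the tested relatives from -0.33 to 2.26. Of 18 relatives 15 were tested and 3 called higher, Rgs4, Actg2 and the skeletal actin Acta1, which had 166 CPM in sarcoma 948 and 0 in 1267. DESeq2 and limma-voom each called 3 of the relatives higher and 1 lower. Reads that actins or light chains share may have been split between copies, because how such reads were counted is not given in the sources used here.

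Lists of other cell types moved between the tissues as well. Called higher were 11 of 14 fibroblast genes, 6 of 15 endothelial, 10 of 11 adipocyte, 7 of 12 skeletal muscle and 1 of 4 Schwann cell genes tested, where edgeR called 4.49% of all genes higher. Their median log2 differences were 6.50, 4.79, 10.67, 5.33 and 1.57. In the same order of lists DESeq2 called 9, 8, 0, 9 and 1 genes higher and limma-voom 11, 9, 4, 3 and 2. DESeq2 gave Rgs5 no adjusted p, and how many genes of these lists it left without one is not reported here. Its 0 adipocyte calls may thus include genes without an adjusted p. Without sarcoma 1268_1270 edgeR called 7 of 14 fibroblast, 1 of 15 endothelial, 4 of 11 adipocyte, 5 of 13 skeletal muscle and 0 of 4 Schwann cell genes. The endothelial sum was 173 to 722 CPM in SMC3+/- sarcomas and 34.9 to 224 in marrow, and the fibroblast sum 1067 to 18841 against 186 to 1002 CPM. Skeletal muscle summed to 2359 CPM in sarcoma 948 and 16.5 in 1267, where Acta1, Myl1 and Myh1 were at 0 although Tagln had 64.2 and Acta2 53.7 CPM. Of megakaryocyte genes 1 of 11 was called, Pf4, and their sums overlapped (98.4 to 165 CPM in SMC3+/- sarcomas, 46.0 to 196 in marrow). edgeR called 0 of 8 tested marrow stroma and bone genes, 0 of 15 pan-leukocyte and 0 of 6 haemoglobin genes, with 4, 2 and 0 at an unadjusted p under 0.05. DESeq2 called 3 (2 higher), 0 and 0 of these and limma-voom 1, 0 and 0. The marrow stroma and bone sum was 200 to 462 CPM in SMC3+/- sarcomas, 153 in sarcoma 841 and 13.8 to 165 in marrow, with a median log2 difference of 1.36 over the tested genes.

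For each of the 8 genes, genes with the most similar pattern were found by the root mean square (RMS) difference of centred log2 CPM over the 14 mouse and tissue samples, among 14199 candidates. The nearest to Rgs5 were Tshz2 (RMS 0.74) and Medag (0.74), with Myl9 next at 0.75. The nearest to Myl9 were Flrt2 (0.43) and Gas1 (0.52), with Rgs5 at place 25. Cspg4 lay nearest to Vstm4 (0.51) and Flt4 (0.53), Notch3 to Dact1 (0.64) and Thbs3 (0.71), and Cnn1 to Tcf21 (0.77). The 3 genes with a marrow signal had poorer partners, Acta2 with Pcolce (1.12) and Soga1 (1.18), Tagln with Myo10 (1.08) and Peak1 (1.15), and Mylk with Ephb4 (1.33) and Scara3 (1.34). For Acta2 the nearest of the other 7 genes was Tagln, at place 390 with an RMS of 1.90, and for Tagln it was Notch3, at place 42. Acta2 and Tagln thus stood side by side in level but apart by this RMS. The 14 samples share depth, tissue and the library 1268_1270. In marrow the 2 genes had 0 and 1.05 CPM in mouse 737, 1.95 and 0 in 779, and 53.2 and 6.87 in 3332. In sarcomas 948, 1267, 2721, 1268_1270 and 841 Acta2 had 26.9, 53.7, 53.7, 258 and 21.1 CPM. Tagln had 32.9, 64.2, 33.7, 244 and 20.5 CPM there. A 0 count takes its log2 level from the prior count. The part of marrows 737 and 779 in the RMS was not tested.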

How the data were processed

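RNA was measured in 16 poly(A) libraries with spike-in RNA added, per the labels' protocols. The authors deposited 1 table of raw counts per gene symbol, all whole numbers whose totals differ between libraries. Per the submitters' processing notes, the tools included STAR, DESeq2 and DESeq and the build was mm9; neither versions nor roles are stated there. The strand setting and gene annotation of the counting were not stated in these sources. Columns were mapped to samples by name, 0 columns belonged to other samples, 0 rows lacked a gene name and 2844 symbols had no count.

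Counts of 1 mouse and tissue were summed to 14 samples, and 1268_1270 was counted as 1 mouse. edgeR 4.0.16 (R 4.3.3, filterByExpr, TMM, robust glmQLFit, glmQLFTest, two-sided) compared 4 sarcoma with 9 marrow mice over all genes, with Benjamini-Hochberg adjusted p under 0.05 as the call. The genotype comparison set 1 mouse against 4. P-values measure the spread between mice. Levels are CPM on TMM-scaled totals, and log2 CPM used a prior count of 2. The SE is the absolute log2 difference over the square root of F and is approximate. Counts carry no molecular identifiers, so floors cover counting error only. Transcript lengths came from GENCODE M21 by symbol and promoters from RefSeq GRCm38.p6, a later build than mm9, with no coordinates taken from the deposited table.

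The 8 genes and all lists were chosen with earlier results of these data known. Named besides the 8 genes were, per list, up to 4 called genes with the smallest adjusted p, or the 2 with the highest sarcoma CPM where none was called, plus Pdgfrb, Pdgfb, Jag1, Notch2, Srf, Myocd, Myh11, close relatives of the 8 genes and the 2 genes of most similar pattern (at least 1 CPM in sarcomas, predicted genes skipped). The text gives some of these, 1 gene of similar pattern is not reported here, and other genes named in it (Ptprc, Aoc3, Flna, Vcl, Myl6, Adipoq, Plin1, Myl1 and Myh1) were picked after their values were seen. By the animal labels, mice 1267 and 2721 supplied a sarcoma and a marrow each, which pairs these samples. The correlation of their deviations from the tissue means was 0.37 and 0.32 over 9102 genes. Alternatives were DESeq2 1.42.0, limma-voom (limma 3.58.1), other scalings, filters and units, the mouse as a block, and each sample left out.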

Additional observations from a re-analysis of the deposited data

Results flagged for a closer look

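Acta2 in the marrow of mouse 737 had a level of 0 CPM, the lowest of the 9 SMC3+/- marrows and far from the nearest of the others, 1.95 CPM in marrow 779, relative to the whole range on the log2 scale. The distance took up 0.497 of that range. Chance marks about 1 group in 20 in this way, and 16 groups were looked at, 8 genes in each of the tissues. That rate was not checked for groups that hold 0 counts. Library 737 is 1 of the 3 marrows low in transcripts longer than 6 kb, with a median log2 deviation of -2.11, although the Acta2 transcript has 2035 bases. In the same library Tagln had 1.05 and Mylk 0.564 CPM. The part of that library's quality in the Acta2 level was not tested. Without marrow 737 the sarcomas exceeded marrow in Acta2 by 2.86 (log2, edgeR adjusted p = 0.0869), and it was not called.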

How the results depend on the processing

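The sarcoma minus marrow difference stayed positive for all 8 genes under every alternative that tested the gene (26 for Cnn1, 30 for Rgs5 and Cspg4, 31 for the other 5). The number of genes called higher was 4, and 3 with DESeq2 (of 7 with an adjusted p), 6 with limma-voom, which added Cspg4 and Notch3, and 3 with total counts. It was 8 with pan-leukocyte scaling, where 57.9% of all genes were called higher and the median of all genes moved from 0.07 to 2.13 and that of the 8 genes from 4.23 to 7.50. It was 2 without sarcoma 1268_1270, 0 without that sarcoma and the libraries of marrows 737, 779, 782 and tumour 1 of mouse 948, and 0 in both fits with the mouse as a block. Leaving out 1 mouse sample at a time gave 2 to 5. In both blocked fits, where only mice 1267 and 2721 inform the difference, Rgs5, Myl9, Tagln and Mylk lost their calls. Pairing and the smaller number of mice cannot be told apart there. With the block over all samples the called genes of the lists went from 8 to 2 (pericyte), 7 to 2 (contractile), 3 to 0 (SRF), 2 to 0 (recruitment), 11 to 6 (fibroblast), 6 to 1 (endothelium), 10 to 8 (adipocyte) and 7 to 1 (skeletal muscle). Over all genes the 662 higher calls became 1355 with no count filter, 8712 with pan-leukocyte scaling, 170 without sarcoma 1268_1270, 300 without the 4 libraries, 62 without both, and 107 and 81 with the block over all samples and in mice 1267 and 2721 alone. The 8 lower calls became 101 with DESeq2, 21 with limma-voom, and 23 and 33 with the block. Mylk lost its call in 15 of 31 alternatives, the most of the 4 called genes, and Rgs5 and Myl9 in 3 each, both blocks and the joint removal of the 4 libraries and sarcoma 1268_1270. For the wild type SMC3 sarcoma, Mylk turned from 0.22 to -2.45 with pan-leukocyte scaling and ranged from -0.00096 to 1.52 when 1 SMC3+/- mouse was left out. Notch3, at -1.38, ranged from -1.64 to 0.30. The causes were not tested. Allowing 1 mismatch raised the promoters with a CArG box from 1 to 3 of 7. Depth limits Rgs5, Myl9, Cspg4 and Cnn1 in marrow, with 10 to 53 counts over 9 libraries each.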
